A study of Mus musculus with 6 samples.

Results

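The 7 genes of the renin-angiotensin and mineralocorticoid system described here were measured in adult mouse hearts after in utero caffeine exposure. They are Agt, Atp6ap2, Ace, Lnpep, Agtr1a, Agtr2 and Nr3c2, and they were found by gene symbol, which gave 7 of the 43629 genes counted in each sample. The samples are poly(A) RNA of the left ventricle from 6 male CD-1 mice, 1 year old and of the F1 generation. Their mothers were injected i.p. once daily from E6.5 to E9.5 of pregnancy, with vehicle (normal saline) for 3 of the mice and with 20 mg/kg caffeine for the others; a second field of the labels ends the exposure at E10.5. Offspring of these exposures were also given dobutamine for ultrasound at younger ages, and whether the sequenced mice were among them is not given. CD-1 is an outbred stock, so the hearts may also differ in genotype. The mother of each mouse is not given, so the p-values measure the spread between these 6 hearts, and littermates cannot be told apart from unrelated mice.

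The renin-angiotensin system raises blood pressure and retains salt. Renin cuts angiotensinogen to angiotensin I, angiotensin-converting enzyme cuts that to angiotensin II, and angiotensin II acts on the heart, vessels, kidney and adrenal gland, where it drives the release of aldosterone. In the heart the type 1 receptor and the mineralocorticoid receptor are best known as targets of drugs used in heart failure, and both have been linked to hypertrophy and fibrosis.

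Total counts ran from 9228359 to 10483101 in vehicle hearts and from 7613011 to 9153997 in caffeine-treated hearts. Values are given as CPM, the count scaled to a common library size with TMM normalization. A gene's share of 3 counts corresponded to between 0.286 and 0.394 CPM by total counts alone, without the TMM factors. That limit covers counting error only. The tissue label was checked against marker genes. Cardiomyocyte markers (Myh6, Myl2, Myl3, Tnni3, Actc1 and Ryr2) summed to between 44630.0 and 52901.5 CPM in every heart. Among these, the ventricular Myl2 alone was at 6746.8 to 8498.8 CPM. The atrial markers Myl7, Myl4, Sln and Bmp10 summed to at most 2.34 CPM. Fibroblast markers (Pdgfra, Tcf21, Dpt, Lum, Dcn and Gsn) summed to 1580.8 to 1862.0 CPM in vehicle hearts and 1867.6 to 2414.9 CPM in caffeine-treated hearts. Of their 6 fold changes, 0 were negative (49.8% of all genes tested). At an unadjusted p below 0.05, 3 of 6 were higher (4.42% of all genes tested), and 0 of 6 were past the thresholds of the test (0.107%). In such bulk tissue, fewer cells of a type and less RNA per cell cannot be told apart.

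The promoters of 3 genes are shown for the contrast between them: Agt, which varied most between hearts, Agtr2, which had no reads, and Atp6ap2, which had reads in every heart at a middle level. Each is the 250 bases before the RefSeq start on GRCm38.p6, read 5′ to 3′ on the transcribed strand, with every CG dinucleotide in capitals. The Agt window is chr8:124569707-124569956 on the minus strand, the Agtr2 window is chrX:21484374-21484623 on the plus strand and the Atp6ap2 window is chrX:12587509-12587758 on the plus strand.
Agt: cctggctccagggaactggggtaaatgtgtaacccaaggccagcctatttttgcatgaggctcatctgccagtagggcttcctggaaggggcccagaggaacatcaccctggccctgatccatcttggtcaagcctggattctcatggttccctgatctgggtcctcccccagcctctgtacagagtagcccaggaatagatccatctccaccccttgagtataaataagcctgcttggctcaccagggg
Agtr2: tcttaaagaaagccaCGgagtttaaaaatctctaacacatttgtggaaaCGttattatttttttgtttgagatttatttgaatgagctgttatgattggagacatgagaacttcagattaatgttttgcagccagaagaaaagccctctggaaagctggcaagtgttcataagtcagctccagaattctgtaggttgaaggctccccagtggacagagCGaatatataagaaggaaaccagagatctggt
Atp6ap2: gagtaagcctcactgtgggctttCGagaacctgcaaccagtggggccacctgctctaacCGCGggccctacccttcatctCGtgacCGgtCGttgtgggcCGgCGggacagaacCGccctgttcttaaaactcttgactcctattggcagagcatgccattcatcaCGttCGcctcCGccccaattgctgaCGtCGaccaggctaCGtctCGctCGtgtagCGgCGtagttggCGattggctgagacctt

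A RefSeq promoter was found for 6 of the 7 genes, all but Agtr1a. The Agt window held 0 CG dinucleotides and the Agtr2 window held 3, whereas the Atp6ap2 window held 20. Ace held 19 at its upstream start and 1 at its downstream start, Nr3c2 held 17 and Lnpep held 25. The median of 32851 RefSeq mouse promoters of this length was 6, so the Agt and Agtr2 windows were below it and those of Atp6ap2, Lnpep, Nr3c2 and the upstream start of Ace were above it. The letters TATAAA, searched on both strands, were present in the Agt window 30 bases before the start and in the upstream Ace window on the opposite strand, and 12.4% of the promoters hold them. The letters AGAACA, one arm of the site that corticosteroid receptors bind, were searched on both strands and were present in the Atp6ap2 window only among these genes, and 16.1% of the promoters hold them. Such matches describe the sequence and are not measured binding sites.

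In the ventricle the 7 genes were transcribed at very different levels. Divided by exon length, the median over the 6 hearts was 16.2 CPM per kb for Ace, 9.47 for Agtr1a, 8.34 for Lnpep, 6.85 for Atp6ap2, 4.44 for Agt and 2.71 for Nr3c2, and 0 for Agtr2. Among the 13092 genes tested, these levels stood at percentile 81.0 for Ace, 70.8 for Agtr1a, 68.2 for Lnpep, 63.6 for Atp6ap2, 52.5 for Agt and 40.0 for Nr3c2. The lowest Ace level per kb, 14.4, was above the highest level of any other gene of the set, 11.1 for Agtr1a. Agtr1a (8.95 to 11.1) did not overlap Lnpep (6.98 to 8.61), but Lnpep overlapped Atp6ap2 (4.96 to 7.54). Agt ranged from 3.22 to 9.53 CPM per kb and overlapped Agtr1a, Lnpep, Atp6ap2 and the upper end of Nr3c2 (2.19 to 3.30), so its place in the order depended on the heart.

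**Figure D1:**
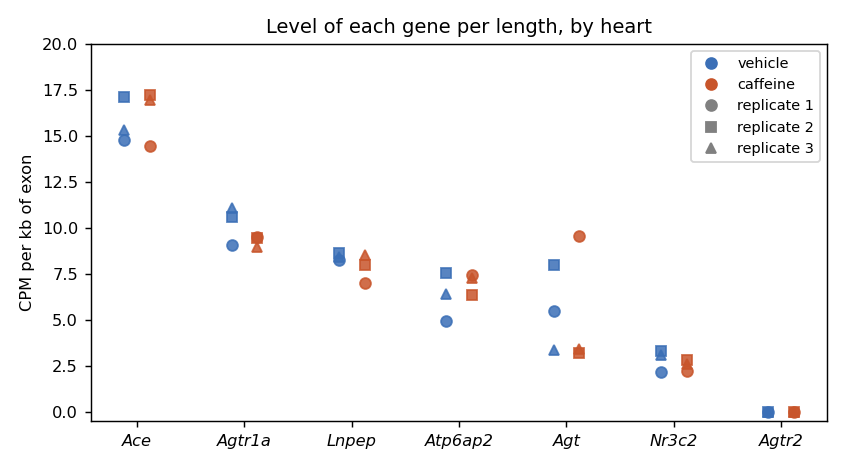
Expression level per kb of exon (CPM per kb) of each gene in each of the 6 hearts, with vehicle and caffeine-treated hearts in separate colours. Ace was highest in all 6 hearts, Agt spread from 3.22 to 9.53 and Agtr2 was at 0 in every heart.

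In utero caffeine exposure did not give a detectable difference in any of these genes. With the quasi-likelihood test of edgeR, 0 of the 6 genes that had enough reads passed the thresholds (Benjamini-Hochberg adjusted p below 0.05 and a fold change above 1.5), against 0.107% of the 13092 genes tested (0.084% higher and 0.0229% lower). The treatments overlapped for all 6, against 14.2% of genes tested whose treatments did not overlap, and 0 of 6 had an unadjusted p below 0.05, against 8.82% (4.42% higher and 4.4% lower). The count was also 0 by edgeR's exact and likelihood ratio tests, DESeq2 and limma-voom. The 95% interval of the fold change lay within 1.5-fold in either direction for 5 of the 6 genes, all but Agt, and for 63% of all genes tested. The log2 fold change was negative for 4 of the 6 (49.8% of all genes tested), and its median was -0.10 against 0.00088 over all genes. In an exact permutation test of 3 against 3 hearts, two-sided, the smallest p possible is 0.1, so that test alone could not have passed 0.05.

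**Figure D2:**
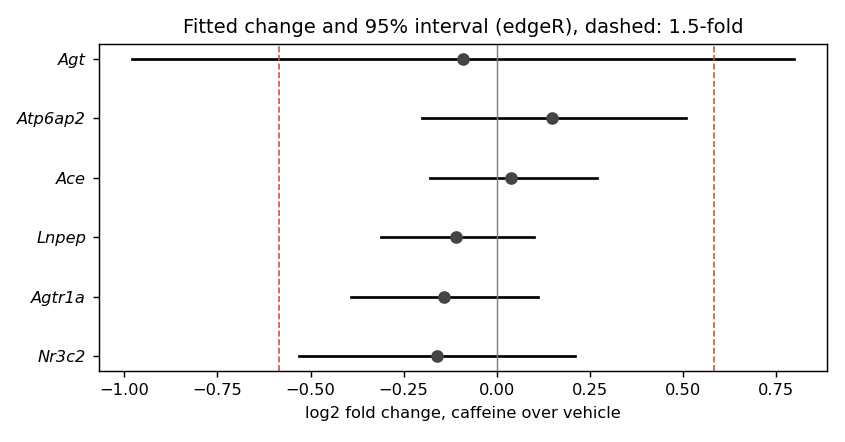
Log2 fold change of caffeine-treated over vehicle hearts with its 95% interval for the 6 genes tested, with lines at no change and at 1.5-fold in either direction. Every interval includes 0, and only that of Agt, from -0.98 to 0.80, reaches past the 1.5-fold lines.

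Agt (ENSMUSG00000031980, chr8:124556534-124569706, minus strand) encodes angiotensinogen, the precursor of all angiotensins, most of which is made by the liver. In vehicle hearts it was at 10.3, 15.1 and 6.37 CPM, and in caffeine-treated hearts at 18.0, 6.08 and 6.44 CPM. The highest heart and the lowest were thus both caffeine-treated, 2.96-fold apart, on 54 to 160 counts. The means were 10.6 ± 4.38 and 10.2 ± 6.80 CPM (SD, n = 3), and the log2 fold change was -0.09 ± 0.40 (SE; edgeR adjusted p = 0.97; exact permutation p = 0.9). Its spread within treatments, an SD of 0.75 on the log2 scale, was larger than that of 98.5% of genes tested. Vehicle replicate 2 and caffeine replicate 1 were the high hearts, and the fold change depended on them: it was -0.76 without caffeine replicate 1 (unadjusted p = 0.0422, edgeR adjusted p = 0.633) and 0.26 without vehicle replicate 2. A change of Agt of the order of 1.5-fold could therefore not be detected at this number of hearts.

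**Figure D3:**
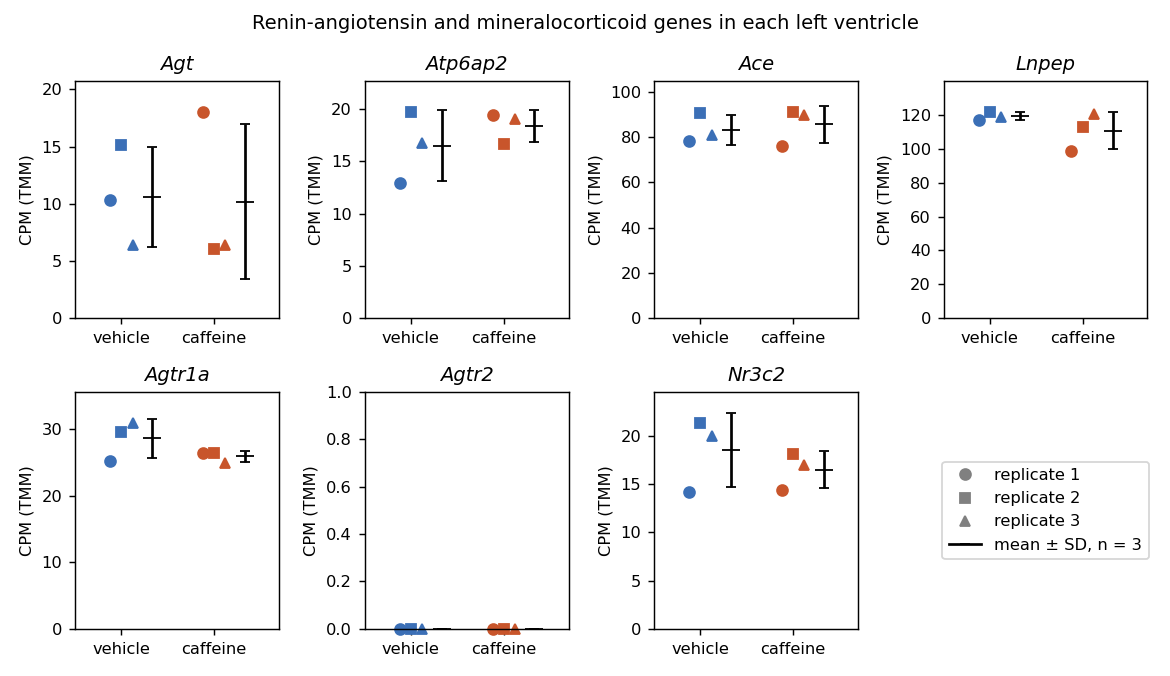
CPM of each of the 7 genes in each heart, 1 panel per gene, with points for hearts and the mean ± SD per treatment (n = 3). Vehicle and caffeine-treated points overlap in every panel, Agt spreads from 6.08 to 18.0 CPM and Agtr2 lies at 0.

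The nearest profile to Agt lay further from it than the nearest profiles of the other genes did from theirs, but Agt itself also spread more. The nearest profile among 10109 genes with a mean of at least 5 CPM was that of Gm11814, annotated as a processed pseudogene, at a root mean square difference of 0.269 on the log2 scale over 6 hearts. Gm11814 was at 6.15, 16.1 and 5.36 CPM in vehicle hearts and 17.2, 6.20 and 5.74 CPM in caffeine-treated hearts. For the other genes, the nearest profiles were those of Nt5m for Ace (0.0257), Zfp526 for Agtr1a (0.0274), Fgfr1 for Atp6ap2 (0.0454), Ubr4 for Lnpep (0.0182) and Cdk12 for Nr3c2 (0.0542). The root mean square deviation of Agt from its own mean over hearts was 0.616, against 0.103 to 0.220 for these other genes. The distances are therefore not on a like scale, and they describe the same 6 libraries.

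Renin itself, the enzyme that cuts angiotensinogen and is made by juxtaglomerular cells of the kidney, was near the limit of detection. Ren1 had 0 counts in all 3 vehicle hearts and 0, 1 and 1 counts in caffeine-treated hearts. Ren2, the closely similar gene that some mouse strains carry beside it, was not analysed here, and reads of both would share much sequence.

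Atp6ap2 (ENSMUSG00000031007, chrX:12587801-12617049, plus strand) encodes the prorenin receptor, which binds renin and prorenin and is also an accessory protein of the vacuolar proton pump (V-ATPase). It was at 13.0, 19.7 and 16.8 CPM in vehicle hearts and 19.4, 16.7 and 19.1 CPM in caffeine-treated hearts. The lowest heart was vehicle replicate 1 and the highest vehicle replicate 2, so all caffeine-treated values lay within the vehicle range. The means were 16.5 ± 3.39 and 18.4 ± 1.497 CPM (SD, n = 3), with a log2 fold change of 0.15 ± 0.16 (SE; 95% interval -0.20 to 0.51; edgeR adjusted p = 0.85; exact permutation p = 0.7). It moved to 0.01 when vehicle replicate 1 was left out and to 0.30 when vehicle replicate 2 was left out. Of all 75-base words of its transcripts, 0.59% also occur in Gm36448.

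Ace (ENSMUSG00000020681, chr11:105967945-105989964, plus strand) encodes angiotensin-converting enzyme, a membrane peptidase of endothelial cells that makes angiotensin II and breaks down bradykinin. It was at 78.1, 90.6 and 81.0 CPM in vehicle hearts and 76.3, 91.2 and 89.8 CPM in caffeine-treated hearts. Both the lowest and the highest heart were caffeine-treated, and the whole range spanned 1.20-fold. The means were 83.2 ± 6.52 and 85.7 ± 8.21 CPM (SD, n = 3). The log2 fold change was 0.04 ± 0.10 (SE; 95% interval -0.18 to 0.27; edgeR adjusted p = 0.95; exact permutation p = 0.9), and its sign turned to -0.04 when counts were scaled by library size alone. Endothelial markers summed to 634.6 to 733.2 CPM in vehicle hearts and 669.6 to 713.7 CPM in caffeine-treated hearts, with 3 of 6 fold changes positive. Of the 6, 0 were past the thresholds (0.107% of all genes tested) and 0 had an unadjusted p below 0.05 (8.82%). Ace shares 295 exon bases with the antisense gene Gm11651, which had 0 counts in every heart, and the library kit does not mark strand.

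Lnpep (ENSMUSG00000023845, chr17:17521410-17625050, minus strand) encodes the insulin-regulated aminopeptidase, which binds the angiotensin IV peptide and travels with the glucose transporter GLUT4 to the cell surface. It was at 116.9, 121.7 and 118.9 CPM in vehicle hearts and 98.7, 112.9 and 120.6 CPM in caffeine-treated hearts. Vehicle hearts were close together, and 2 of the 3 caffeine-treated hearts lay below all of them while the third lay between. The means were 119.2 ± 2.41 and 110.7 ± 11.1 CPM (SD, n = 3), with a log2 fold change of -0.11 ± 0.09 (SE; 95% interval -0.31 to 0.10; edgeR adjusted p = 0.81; exact permutation p = 0.3). Without caffeine replicate 1, the lowest heart, it was -0.03. Lnpep had the most reads of the set, 706 to 1289 counts per heart, but its annotated exons are also the longest, at 14144 bases.

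Agtr1a (ENSMUSG00000049115, chr13:30336441-30382867, plus strand) encodes the type 1a receptor, through which angiotensin II raises vascular tone and stimulates growth; in the heart it is best known from fibroblasts and pericytes. It was at 25.3, 29.6 and 30.9 CPM in vehicle hearts and 26.4, 26.4 and 24.9 CPM in caffeine-treated hearts. Vehicle replicate 1 lay among the caffeine-treated hearts and the other vehicle hearts lay above them. The means were 28.6 ± 2.96 and 25.9 ± 0.842 CPM (SD, n = 3), with a log2 fold change of -0.14 ± 0.11 (SE; 95% interval -0.39 to 0.11; edgeR adjusted p = 0.78; exact permutation p = 0.3). Leaving out vehicle replicate 1 gave -0.22 and leaving out vehicle replicate 3 gave -0.08. Smooth muscle and pericyte markers overlapped between treatments (summed 1156.0 to 1311.9 against 1140.5 to 1333.8 CPM), but Rgs5 and Abcc9 made up most of that sum. Of the 7 fold changes, 4 were positive and 3 negative, from -0.41 for Myh11 and -0.31 for Acta2 to 0.13 for Tagln. The fibroblast markers were higher in sum as given above. The part of these cell types in the Agtr1a value was not tested. The second type 1 gene of rodents, Agtr1b, had 1 count in 1 caffeine-treated heart and 0 counts in the other 5 hearts, and none of the 75-base words of Agtr1a occurs in it.

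Agtr2 (ENSMUSG00000068122, chrX:21484544-21489164, plus strand) encodes the type 2 receptor, which is abundant in fetal tissues and opposes many effects of the type 1 receptor. It had 0 counts in all 6 hearts, and no fold change was computed. By total counts alone, without the TMM factors, 0 counts allow up to 0.286 CPM in the deepest library and 0.394 CPM in the shallowest. The receptors of the shorter angiotensin peptides were also low. Mas1, the receptor of angiotensin-(1-7), had 7, 6 and 3 counts in vehicle hearts and 3, 3 and 0 in caffeine-treated hearts, too few to be tested, and Mrgprd had 0 counts in all 6.

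Nr3c2 (ENSMUSG00000031618, chr8:76899442-77245012, plus strand) encodes the mineralocorticoid receptor, a nuclear receptor for aldosterone that also binds glucocorticoids. It was at 14.1, 21.3 and 20.0 CPM in vehicle hearts and 14.4, 18.1 and 17.0 CPM in caffeine-treated hearts. Vehicle replicate 1 was the lowest of all hearts and the other vehicle hearts were the highest. The means were 18.5 ± 3.83 and 16.5 ± 1.92 CPM (SD, n = 3), with a log2 fold change of -0.16 ± 0.17 (SE; 95% interval -0.53 to 0.21; edgeR adjusted p = 0.85; exact permutation p = 0.6). Without vehicle replicate 1 it was -0.32 (unadjusted p = 0.0473, edgeR adjusted p = 0.535). Nr3c2 shares 247 exon bases with the lncRNA Gm10649 on the opposite strand, which had at most 8 counts in a heart.

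The other renin-angiotensin genes gave no call either. A list of 22 further genes, peptidases and receptors of angiotensin peptides, had 21 members in the annotation used and 12 with enough reads. Of the 12, 0 passed the thresholds by edgeR (0.107% of all genes tested) and 0 had an unadjusted p below 0.05 (8.82%). The exact and likelihood ratio tests of edgeR, DESeq2 and limma-voom also called 0. The median log2 fold change of the 12 was 0.01, with 8 positive and 4 negative. Only Nln (neurolysin, 0.28; edgeR adjusted p = 0.59) and Dpp3 (dipeptidyl peptidase 3, 0.15; edgeR adjusted p = 0.75), which both cleave angiotensin peptides, had caffeine-treated hearts all above the vehicle hearts, 2 of 12 genes against 7.1% of all genes tested. The mast cell proteases Cma1, Mcpt4, Ctsg and Cpa3, which include chymases able to make angiotensin II, had at most 3 counts in any heart. Of the 5 mast cell markers, Ms4a2 had 0 counts in all 6 hearts, Fcer1a at most 1 and Tpsb2 at most 3. Kit (9 to 36 counts) and Hdc (20 to 29 counts) had enough reads to be tested.

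**Figure D4:**
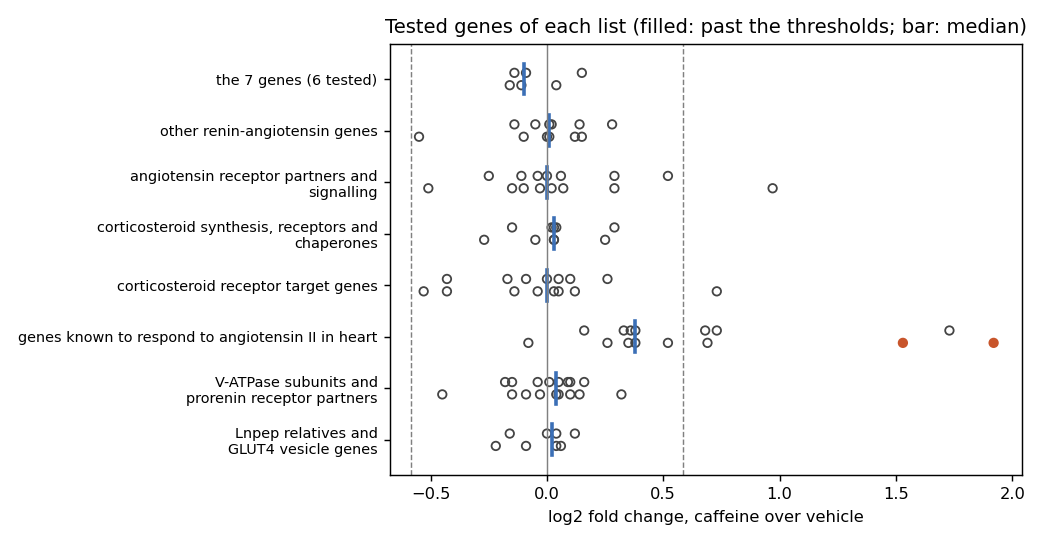
Log2 fold change of caffeine-treated over vehicle hearts for every tested gene of the 7 described genes and of each pathway list, 1 point per gene, with the list median and lines at 1.5-fold. The list medians lie between -0.10 and 0.04, other than that of genes known to respond to angiotensin II, at 0.38.

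Among 15 partners and signalling genes of the angiotensin receptors, 0 passed the thresholds by edgeR (0.107% of all genes tested). Its exact and likelihood ratio tests, DESeq2 and limma-voom also called 0. An unadjusted p below 0.05 was found for 1 higher and 1 lower gene of 15, against 4.42% and 4.4% of all genes tested. The higher gene was Grk5, a kinase that phosphorylates active G protein-coupled receptors, at 22.4, 21.6 and 20.2 CPM in vehicle hearts and 60.7, 21.1 and 45.2 CPM in caffeine-treated hearts. Caffeine replicate 2 was thus among the vehicle values and the other caffeine-treated hearts were well above them, for a log2 fold change of 0.97 ± 0.29 (SE; edgeR adjusted p = 0.30). It rose past the thresholds without caffeine replicate 2 (1.30; edgeR adjusted p = 0.0117) and when no filter on low counts was used (0.95), and was 0.63 without caffeine replicate 1 (edgeR adjusted p = 0.614). Grk5 is also on the list of genes that the study selected from these samples, so its direction is not independent evidence. The lower gene was Rgs2, which limits signalling through Gq-coupled receptors such as the type 1 receptor. It was at 36.3, 24.0 and 23.5 CPM in vehicle hearts and 20.1, 17.1 and 21.7 CPM in caffeine-treated hearts (log2 fold change -0.51 ± 0.18 SE; edgeR adjusted p = 0.40), and -0.27 without vehicle replicate 1. Plcb3, a phospholipase gene downstream of Gq, was lower in every caffeine-treated heart than in any vehicle heart (-0.25, edgeR adjusted p = 0.63). The related gene Plcb1 overlapped between treatments and had a positive fold change (0.29, edgeR adjusted p = 0.84). The 2 lower genes without overlap, Plcb3 and Rgs2, compare with 7.13% of all genes tested.

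Corticosteroid synthesis was near the limit of detection, whereas the receptors' partners were well expressed. Cyp11b2 (aldosterone synthase) and Cyp11b1 had 0 counts in all 6 hearts, and Hsd11b2, the enzyme that shields the mineralocorticoid receptor from glucocorticoids in the kidney, had at most 1 count. Nr3c1, the glucocorticoid receptor, was at 83.6 ± 9.54 CPM in vehicle hearts and 84.4 ± 9.71 CPM in caffeine-treated hearts (SD, n = 3; log2 fold change 0.02), and Hsd11b1, which regenerates active glucocorticoid, at 25.3 ± 1.25 and 26.1 ± 2.94 CPM (0.04). Of the 10 genes of this list with enough reads, 0 passed the thresholds by edgeR (0.107% of all genes tested). An unadjusted p below 0.05 was found for 0 of the 10 (8.82% of all genes tested). The other tools also called 0. The 3 with the smallest p were H6pd, which supplies Hsd11b1 with cofactor (-0.27; edgeR adjusted p = 0.58), the chaperone Hsp90aa1 (0.29; edgeR adjusted p = 0.70) and the coactivator Ncoa2 (-0.15; edgeR adjusted p = 0.75).

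Genes that corticosteroid receptors are known to induce did not move one way. Of 16 such genes 15 were tested. By edgeR 0 of them passed the thresholds (0.107% of all genes tested), with 0 also by its exact and likelihood ratio tests, DESeq2 and limma-voom. Their median log2 fold change was 0.00, with 8 positive and 7 negative, and an unadjusted p below 0.05 was found for 1 higher and 2 lower genes of 15, against 4.42% and 4.4% of all genes tested. The lower genes were Zbtb16 and Fkbp5, a transcription factor and a co-chaperone of the receptors, and in both every caffeine-treated heart was below every vehicle heart, against 7.13% of all genes tested. Zbtb16 was at 207.6, 160.8 and 162.0 CPM in vehicle hearts and 118.9, 132.7 and 142.2 CPM in caffeine-treated hearts (log2 fold change -0.43 ± 0.12 SE; 95% interval -0.68 to -0.17; edgeR adjusted p = 0.27). Fkbp5 was at 149.0, 100.2 and 113.9 CPM in vehicle hearts and 95.2, 61.0 and 95.3 CPM in caffeine-treated hearts (-0.53 ± 0.18 SE; 95% interval -0.93 to -0.13; edgeR adjusted p = 0.38). Both stayed negative with each heart left out in turn, from -0.49 to -0.30 for Zbtb16 and from -0.65 to -0.35 for Fkbp5. With no filter on low counts, their edgeR adjusted p was 0.00249 and 6.97e-05, at log2 fold changes of -0.45 and -0.55 that lie below 1.5-fold. That setting called many more genes of all kinds, 145 higher and 95 lower against 11 and 3 in the main fit. The adjusted p of Zbtb16 and Fkbp5 was 0.0886 and 0.2195 by the exact test, 0.0792 and 0.143 by DESeq2, and 0.287 and 0.403 by limma-voom.

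The higher target was Mt2, a metallothionein that metals and glucocorticoids induce. It was at 101.7, 95.6 and 85.8 CPM in vehicle hearts and 169.9, 96.5 and 202.6 CPM in caffeine-treated hearts, so that, as for Grk5, caffeine replicate 2 lay within the vehicle range. The log2 fold change was 0.73 ± 0.21 (SE; edgeR adjusted p = 0.30), and Mt2 passed the thresholds without caffeine replicate 2 (0.98; edgeR adjusted p = 0.0151) and with no filter on low counts (0.70). Without caffeine replicate 3 it was 0.50 (edgeR adjusted p = 0.646). The targets best known from the kidney and heart showed fold changes near 0, with 0.10 for Sgk1, -0.09 for Tsc22d3 and 0.00 for Per1. Vehicle replicate 1 was the highest heart for 7 of the 15 targets, against 18.8% of all genes tested, and it was at 2023.8 CPM for Pdk4 where the other hearts were between 737.5 and 1094.3 CPM. That heart was also the lowest for Nr3c2. Without it, the log2 fold change was -0.30 for Zbtb16 (edgeR unadjusted p = 0.0130) and -0.36 for Fkbp5 (edgeR unadjusted p = 0.0646). Both were nearer 0 than with all hearts, whereas Mt2 was further from 0, at 0.78 (edgeR unadjusted p = 0.00881). The part of vehicle replicate 1 in the other target values was not tested.

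**Figure D5:**
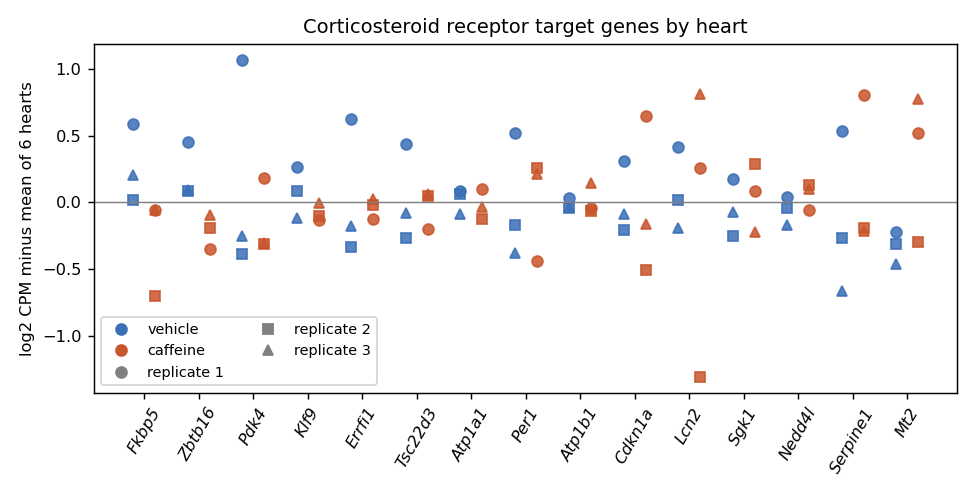
Expression of corticosteroid receptor target genes, including Zbtb16, Fkbp5 and Mt2, in each heart. Zbtb16 and Fkbp5 were lower in every caffeine-treated heart than in any vehicle heart, whereas the treatments overlap for Mt2.

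Genes known to respond to angiotensin II in the heart mostly had positive fold changes. Of 17 such genes 15 were tested, of which 14 were positive, with a median log2 fold change of 0.38 against 0.00088 over all genes. Of these, 2 rose past the thresholds by edgeR (0.084% of all genes tested), 9 had a higher value at an unadjusted p below 0.05 (4.42% of all genes tested) and 7 did not overlap between treatments (7.1%). The 2 were Nppb (B-type natriuretic peptide) and Acta1 (skeletal alpha-actin), with log2 fold changes of 1.92 ± 0.16 and 1.53 ± 0.14 (SE; edgeR adjusted p = 0.0023 and 0.0030). Both are genes that the study itself selected from these samples, so their direction is not independent evidence. The study also reported higher Myh7 and Nppa (ANP) by qPCR in left ventricles of this exposure and age. Because the list was chosen with earlier results of these data known, its counts are not independent evidence either. Rcan1, an inhibitor of calcineurin that calcineurin induces, was at 156.7, 132.7 and 136.7 CPM in vehicle hearts and 202.8, 201.2 and 205.5 CPM in caffeine-treated hearts (0.52 ± 0.09 SE; edgeR adjusted p = 0.062), and rose past the thresholds without vehicle replicate 1 (0.59; edgeR adjusted p = 0.0323). The list also holds the matrix genes Col1a1 (0.38), Col3a1 (0.73), Fn1 (-0.08) and Postn (0.68), of which 0 passed the thresholds, whereas the exact and likelihood ratio tests called Col3a1, Postn and Nppa too, for 5 genes in all. DESeq2 called 3 of the list (Nppb, Acta1 and Col3a1), limma-voom 2 (Nppb and Acta1) and the fit with a replicate block 3 (Nppb, Acta1 and Nppa). The fibroblast markers were higher in sum, as given above. The macrophage markers (Adgre1, Csf1r, Cd68, C1qa and Mrc1) summed to 87.4 to 131.3 CPM in vehicle hearts and 103.9 to 196.3 CPM in caffeine-treated hearts, with 5 of 5 fold changes positive, a median of 0.34 and 2 of 5 (Adgre1 and Csf1r) not overlapping between treatments. The part of either cell type in the values of this list was not tested. Many other stimuli move these genes, and angiotensin II itself was not measured.

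The V-ATPase subunits and prorenin receptor partners around Atp6ap2 showed small differences. All 17 were tested, and their median log2 fold change was 0.04. By edgeR 0 of the 17 passed the thresholds (0.107% of all genes tested), with 0 also by its exact and likelihood ratio tests, DESeq2 and limma-voom. An unadjusted p below 0.05 was found for 1 higher and 1 lower gene of 17, against 4.42% and 4.4% of all genes tested. The subunit gene Atp6v1h was higher in every caffeine-treated heart (26.8, 24.7 and 27.3 CPM against 32.8, 29.3 and 35.9 CPM; log2 fold change 0.32 ± 0.11 SE; edgeR adjusted p = 0.41). The Wnt receptor genes Fzd8 (-0.45 ± 0.16 SE; edgeR adjusted p = 0.41) and Lrp6 (-0.18; edgeR adjusted p = 0.60), whose proteins the prorenin receptor binds, were lower in every caffeine-treated heart. Fzd8 was at 10.3, 9.63 and 11.0 CPM in vehicle hearts and 7.97, 6.42 and 8.31 CPM in caffeine-treated hearts. The treatments were thus apart for 1 higher and 2 lower genes of 17, against 7.1% and 7.13% of all genes tested.

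Around Lnpep, 8 of 9 related aminopeptidase and GLUT4 vesicle genes were tested. Of these, 0 passed the thresholds by edgeR (0.107% of all genes tested) or any of the other tools. An unadjusted p below 0.05 was found for 0 of the 8 (8.82% of all genes tested). The median log2 fold change of the 8 was 0.02. Npepps, a cytosolic aminopeptidase, was the only gene of the 8 that was lower in every caffeine-treated heart (-0.16; edgeR adjusted p = 0.63), against 7.13% of all genes tested, and the transporter gene Slc2a4 (GLUT4) was at 720.0 ± 19.0 CPM in vehicle hearts and 740.7 ± 44.0 CPM in caffeine-treated hearts (SD, n = 3; 0.04). Erap1 (0.12; edgeR adjusted p = 0.89) and Tbc1d4 (-0.09; edgeR adjusted p = 0.89) followed it by p-value.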

How the data were processed

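The authors sequenced single-end reads of poly(A) RNA, checked them with FastQC, aligned them to mm10 (GRCm38) using TopHat2 and obtained gene counts by HTSeq from Ensembl 79 models. Tool versions and the strand setting of the counting are not given in the sources used here. The deposited values are raw counts of 43629 genes per sample, not normalized or pooled.

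From these counts, genes were filtered with filterByExpr (minimum count 10, minimum total 15), which left 13092, and fitted in edgeR 4.0.16 (R 4.3.3) with TMM factors (0.94 to 1.072), glmQLFit and glmQLFTest; treatment was the sole term of the design. Standard errors and 95% intervals follow from the fold change and its p-value. The fit was also tested on simulated data. The permutation test compared log2 CPM (prior count 2) over all 20 labelings. CPM per kb used the exon union of GENCODE release 21 of the mouse series. Shared sequence was counted as 75-base words of transcripts. Replicates differed beyond sampling noise (chi-square per degree of freedom 5.37 to 14.0), so each library was 1 sample.

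The genes and lists were chosen with earlier results of these data known. The text names all 7 genes, list genes past the thresholds, the 3 of each list with the smallest p and the nearest profile of each gene; further list genes were named for their role or after their values were seen. A gene that this rule names is not reported here. Marker lists of 11 cell types were summed per heart. By the quasi-likelihood test, the mast cell, adipocyte, red blood cell, Schwann cell and mesothelial lists had 0 genes past the thresholds (0.107% of all genes tested). They also had 0 with an unadjusted p below 0.05 by that test (8.82% of all genes tested), and 0 calls by the other tools. Of the 5 macrophage markers, 1 was higher at an unadjusted p below 0.05 (4.42% of all genes tested), Adgre1 (log2 fold change 0.93, edgeR adjusted p = 0.226). Adgre1 passed the thresholds by edgeR's exact and likelihood ratio tests and with no filter. Alternatives were edgeR's exact and likelihood ratio tests, DESeq2 1.42.0, limma-voom (limma 3.58.1), other scalings and filters, a replicate block, each heart left out and a prior count of 0.5. Python 3.11.15, pandas 2.3.3, NumPy 2.4.6 and Matplotlib 3.10.9 were used.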

Additional observations from a re-analysis of the deposited data

How the results depend on the processing

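None of the 6 tested genes passed the thresholds under any alternative run. Their smallest edgeR adjusted p was 0.535, for Nr3c2 without vehicle replicate 1 (0.849 for Nr3c2 in the main fit). In the main fit the smallest was 0.785, for Agtr1a. The sign turned for 2 of the 6: Ace was -0.04 with library size only (the difference in mean log2 CPM of its permutation test, 0.04, was also -0.04 with that scaling) and -0.0025 to 0.12 with each heart left out, and Agt was -0.76 to 0.26 with each heart left out. Of the genes named as nearest profiles, Nt5m was -0.05 and Gm11814 -0.05 with library size only, and with each heart left out Nt5m was -0.02 to 0.09, Gm11814 -0.63 to 0.73 and Cdk12 -0.24 to 0.05. The count of all genes past the thresholds depended much more on the method: 11 genes were higher and 3 lower, against 61 and 33 by the exact test, 63 and 38 by the likelihood ratio test, 40 and 28 by DESeq2, 145 and 95 with no filter and 15 lower with library size only. With each heart left out, 4 to 17 genes were higher and 0 to 13 lower. The causes were not tested. Precision is limited by 3 hearts per treatment and, for Agt, Nr3c2 and Atp6ap2, by counts that fell to 54, 103 and 133 in the lowest heart.

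The replicate numbers did not pair the samples: deviations of same-numbered hearts correlated at 0.045, -0.030 and -0.0375, and not every sample correlated best with its own number. With the replicate block, 29 genes were higher, 11 were lower and 0 of the 6 tested genes passed.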
